A study of Mus musculus with 25 samples.

Results

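DNA methylation and demethylation enzymes were followed in the RNA of mouse sperm as a set of 9 genes, taken by symbol from the 47575 genes of the deposited table: Dnmt1, Dnmt3a, Dnmt3b, Dnmt3l, Uhrf1, Tet1, Tet2, Tet3 and Tdg. All 9 were found, and all 9 had a mean normalised count of at least 5, so that none was lost to the filter on low values. The rule used gene symbols only and no measured value. A normalised count is the number of reads of a gene divided by a size factor that brings the libraries to a common scale.

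Sperm RNA was sequenced from 25 C57BL/6J males, 5 on each of 5 diets, every group being fed its diet for at least 8 weeks. Low-protein (LPD) males received 9% casein and 24% sugar, and Western diet (WD) males received 19% casein, 34% sugar, 20% milk fat and 0.15% cholesterol. MD-LPD and MD-WD males received those diets with methyl donors added per kg of diet. These were 5 g choline chloride, 15 g betaine, 7.5 g methionine, 15 mg folic acid and 1.5 mg vitamin B12. Control (CD) males received 18% casein and 21% sugar without milk fat, cholesterol or this supplement. The unsupplemented diets also differed in methionine: by the study's diet listing, CD and LPD had added D,L-methionine and WD had none. That listing gives all of them choline chloride, and WD more vitamin mix, with its folic acid, than CD. The study asked what paternal under- and overnutrition, and methyl donors given on top of them, do to semen, and sperm were taken after swimming out of sliced caudal epididymides, with no step in the methods that lyses other cells. Each library came from a separate male, and the study gives more males per diet group than are analysed here. For 3 libraries, 1 each titled CD, LPD and MD-LPD, the treatment field named a different diet, and the titles were followed.

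Cytosine methylation at CpG dinucleotides is copied onto new DNA by DNMT1, which UHRF1 brings to hemimethylated sites after replication. DNMT3A and DNMT3B place new methyl groups, in germ cells with the help of the inactive relative DNMT3L. The TET enzymes oxidise methylcytosine, and thymine DNA glycosylase, the product of Tdg, cuts out the most oxidised forms so that base excision repair can restore cytosine. Methyl groups for the reaction come from S-adenosylmethionine, which one-carbon metabolism makes from the methyl donors that the supplemented diets carried. Mature sperm do not transcribe, and their RNA is left from earlier stages or taken up on the way through the epididymis.

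Reads counted to genes summed to 32455480 to 54108158 per library. The table carried transcripts of sperm and of other cells of the male tract: all 20 genes of a sperm and late spermatid marker list were present, their summed normalised count lying between 108025 and 1737712 per library, and all 18 genes of a leukocyte list (19380 to 101671 in sum) and all 20 of an epididymal epithelium list (101008 to 534744) were present too. No marker of these lists was at 0 in all libraries. The mean sperm sum was 547587 ± 573481 in LPD libraries, 490524 ± 424594 in MD-LPD, 949199 ± 521527 in WD, 792057 ± 582175 in MD-WD and 430421 ± 141669 in CD libraries (SD, n = 5 each). In these bulk samples, fewer cells of a type and less RNA per cell cannot be told apart.

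The genes lie in the GRCm39 assembly as follows: Dnmt1 at chr9:20817945-20871184, Dnmt3a at chr12:3856007-3964443, Dnmt3b at chr2:153490861-153529650, Dnmt3l at chr10:77877781-77899456, Uhrf1 at chr17:56610275-56630489, Tet1 at chr10:62640349-62744775, Tet2 at chr3:133169436-133250900, Tet3 at chr6:83339355-83436066 and Tdg at chr10:82465610-82489654. Counts were made per gene, so reads of all its transcripts and exons were pooled. Exons of Tdg share 57.1% of their bases with Glt8d2 on the opposite strand, and exons of Tet3 share 9.06% with Bola3. The counting setting for strand is not given in the sources used here, so the values of Tdg in particular may hold reads of its neighbour, although Glt8d2 itself was at 164 ± 45.0 normalised counts (SD, n = 25). Tdg-ps and Tdg-ps2, processed copies of Tdg, were counted at 63.2 ± 19.0 and 36.4 ± 10.1, and Dnmt3l-ps1 at 54.3 ± 26.9, close to the 57.2 ± 25.5 of Dnmt3l itself, so the values of Tdg and Dnmt3l are uncertain by the way shared reads were split.

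The CpG dinucleotides that these enzymes write and erase are also part of their own promoters. The 4 promoters printed here are those of Uhrf1, Dnmt3l, Tdg and Dnmt3a. By the deposited size factors, counts of Uhrf1 and Dnmt3l were higher and those of Tdg and Dnmt3a lower in libraries rich in sperm transcripts. For Dnmt3l this was weak with libraries scaled to equal totals (Pearson's r 0.23). Each sequence runs 5′ to 3′ on the strand of the gene, with every CpG in capitals, over 250 bases before and 50 bases from the start of the transcript that GENCODE names as canonical: Uhrf1 at chr17:56610025-56610324 (plus strand, 10 CpG), Dnmt3l at chr10:77885426-77885725 (plus, 4 CpG), Tdg at chr10:82465360-82465659 (plus, 17 CpG) and Dnmt3a at chr12:3856713-3857012 (plus, 46 CpG).
Uhrf1: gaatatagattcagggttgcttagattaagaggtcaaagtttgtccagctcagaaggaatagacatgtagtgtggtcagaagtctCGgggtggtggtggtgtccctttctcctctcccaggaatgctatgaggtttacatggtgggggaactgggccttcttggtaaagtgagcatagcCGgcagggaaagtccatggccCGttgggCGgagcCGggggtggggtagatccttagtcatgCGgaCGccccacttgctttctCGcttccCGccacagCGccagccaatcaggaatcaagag
Dnmt3l: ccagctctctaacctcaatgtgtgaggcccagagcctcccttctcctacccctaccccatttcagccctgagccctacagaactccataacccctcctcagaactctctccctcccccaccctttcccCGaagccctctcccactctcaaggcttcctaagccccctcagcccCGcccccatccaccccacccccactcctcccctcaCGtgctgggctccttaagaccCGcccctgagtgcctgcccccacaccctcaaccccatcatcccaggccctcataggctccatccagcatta
Tdg: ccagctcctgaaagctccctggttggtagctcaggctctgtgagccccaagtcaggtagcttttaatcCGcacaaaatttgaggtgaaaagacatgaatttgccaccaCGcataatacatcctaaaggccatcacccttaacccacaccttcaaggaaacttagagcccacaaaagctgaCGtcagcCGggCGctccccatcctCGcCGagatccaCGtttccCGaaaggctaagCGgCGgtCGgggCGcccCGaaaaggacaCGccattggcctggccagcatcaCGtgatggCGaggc
Dnmt3a: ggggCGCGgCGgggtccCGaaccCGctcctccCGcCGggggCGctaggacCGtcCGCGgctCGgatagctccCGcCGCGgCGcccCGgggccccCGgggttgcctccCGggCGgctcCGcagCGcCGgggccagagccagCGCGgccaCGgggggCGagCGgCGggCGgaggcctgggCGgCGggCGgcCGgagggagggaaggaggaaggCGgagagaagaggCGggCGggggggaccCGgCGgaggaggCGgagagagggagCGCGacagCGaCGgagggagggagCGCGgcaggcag
The median over 20591 protein-coding promoters of this length was 12 CpG. Of these promoters 99.0% had fewer CpG than that of Dnmt3a, 62.9% fewer than that of Tdg, 44.5% fewer than that of Uhrf1 and 22.4% fewer than that of Dnmt3l. Among the other members the window of Tet3 held 46, that of Dnmt3b 22, that of Tet2 20, that of Dnmt1 12 and that of Tet1 5. The window of Uhrf1 held 1 match to the E2F-type word TTCCCGCC, searched on both strands and present in 2.90% of promoters, and that of Tdg held 1 match to the cyclic AMP response element TGACGTCA, present in 2.54%. No member's window held TTTGGCGC, a further E2F-type word found in 0.704% of promoters. Other transcripts of these genes start elsewhere, and methylation itself was not measured.

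Per kb of merged exons, Tet2, Tet3 and Dnmt1 had the highest levels of the set and Dnmt3b, Tet1 and Dnmt3l the lowest. Over 25 libraries Tet2 averaged 194 ± 45.2 normalised counts per kb (SD), Tet3 172 ± 48.3, Dnmt1 170 ± 26.2, Dnmt3a 120 ± 28.1, Uhrf1 92.4 ± 51.6, Tdg 70.6 ± 16.9, Dnmt3l 18.6 ± 8.28, Tet1 16.003 ± 4.08 and Dnmt3b 11.3 ± 4.95. The maintenance enzyme Dnmt1 was above the de novo enzyme Dnmt3a in 25 of 25 libraries, and Tdg was above Dnmt3l in 25 of 25. Other neighbours in this order were not separated: Tet2 was above Tet3 in 18 of 25 libraries, Tet3 above Dnmt1 in 8, Dnmt3a above Uhrf1 in 16, Uhrf1 above Tdg in 12, Dnmt3l above Tet1 in 16 and Tet1 above Dnmt3b in 18. With the longest annotated transcript as the length the order of the means was the same, but Dnmt1 was above Dnmt3a in only 16 libraries and Tet3 above Dnmt1 in 21. Before scaling for length, the least sequenced members, Dnmt3b and Dnmt3l, rested on 27 to 157 and 31 to 94 reads per library.

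**Figure D1:**
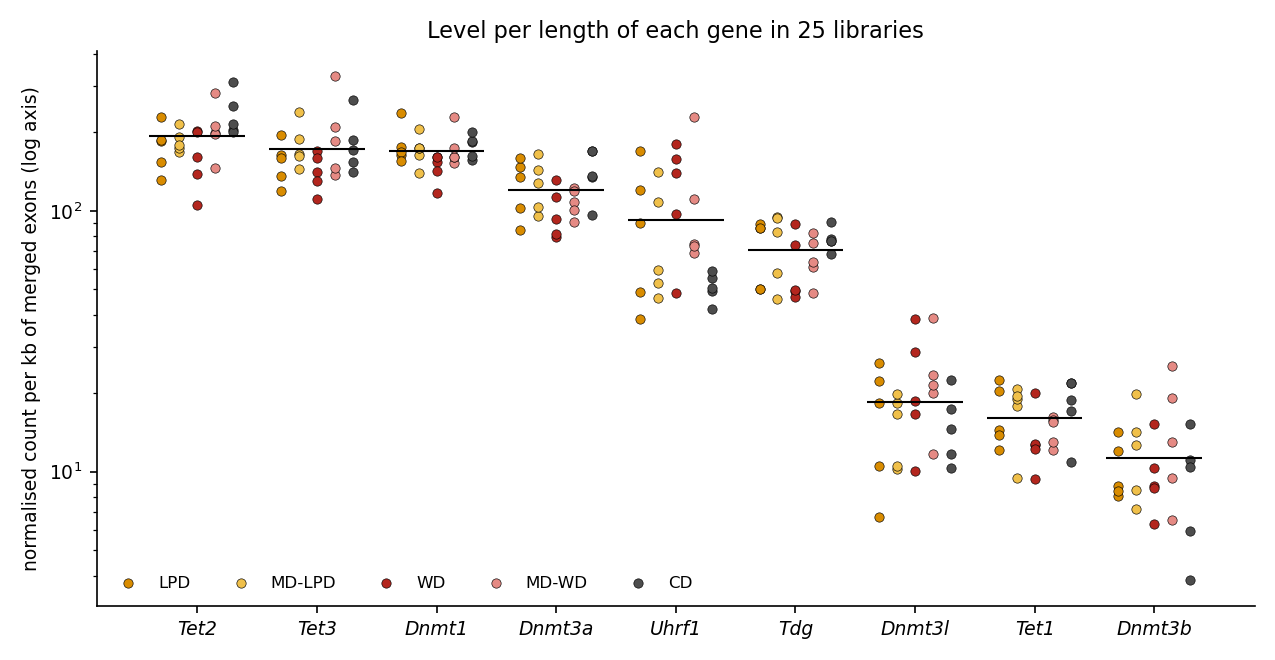
Normalised count per kb of merged exons (log axis) of each gene in 25 libraries, 5 points for each diet group in the order LPD, MD-LPD, WD, MD-WD and CD, with the mean over all libraries as a line. Tet2, Tet3 and Dnmt1 lie at the top with means of 194, 172 and 170, and Dnmt3l, Tet1 and Dnmt3b at the bottom with means of 18.6, 16.003 and 11.3.

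Uhrf1 was the least steady member, with a coefficient of variation of 55.8% over the 25 libraries, and its partner Dnmt1 the steadiest, at 15.4%. Among genes with a mean within 1.5-fold of its own the median was 30.9% for Uhrf1 and 27.1% for Dnmt1. Dnmt3l and Dnmt3b varied by 44.5% and 43.6%, less than the medians of 51.5% and 50.3% for genes of like mean, and the remaining members by 23.3% to 28.0%, at or below theirs.

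**Figure D2:**
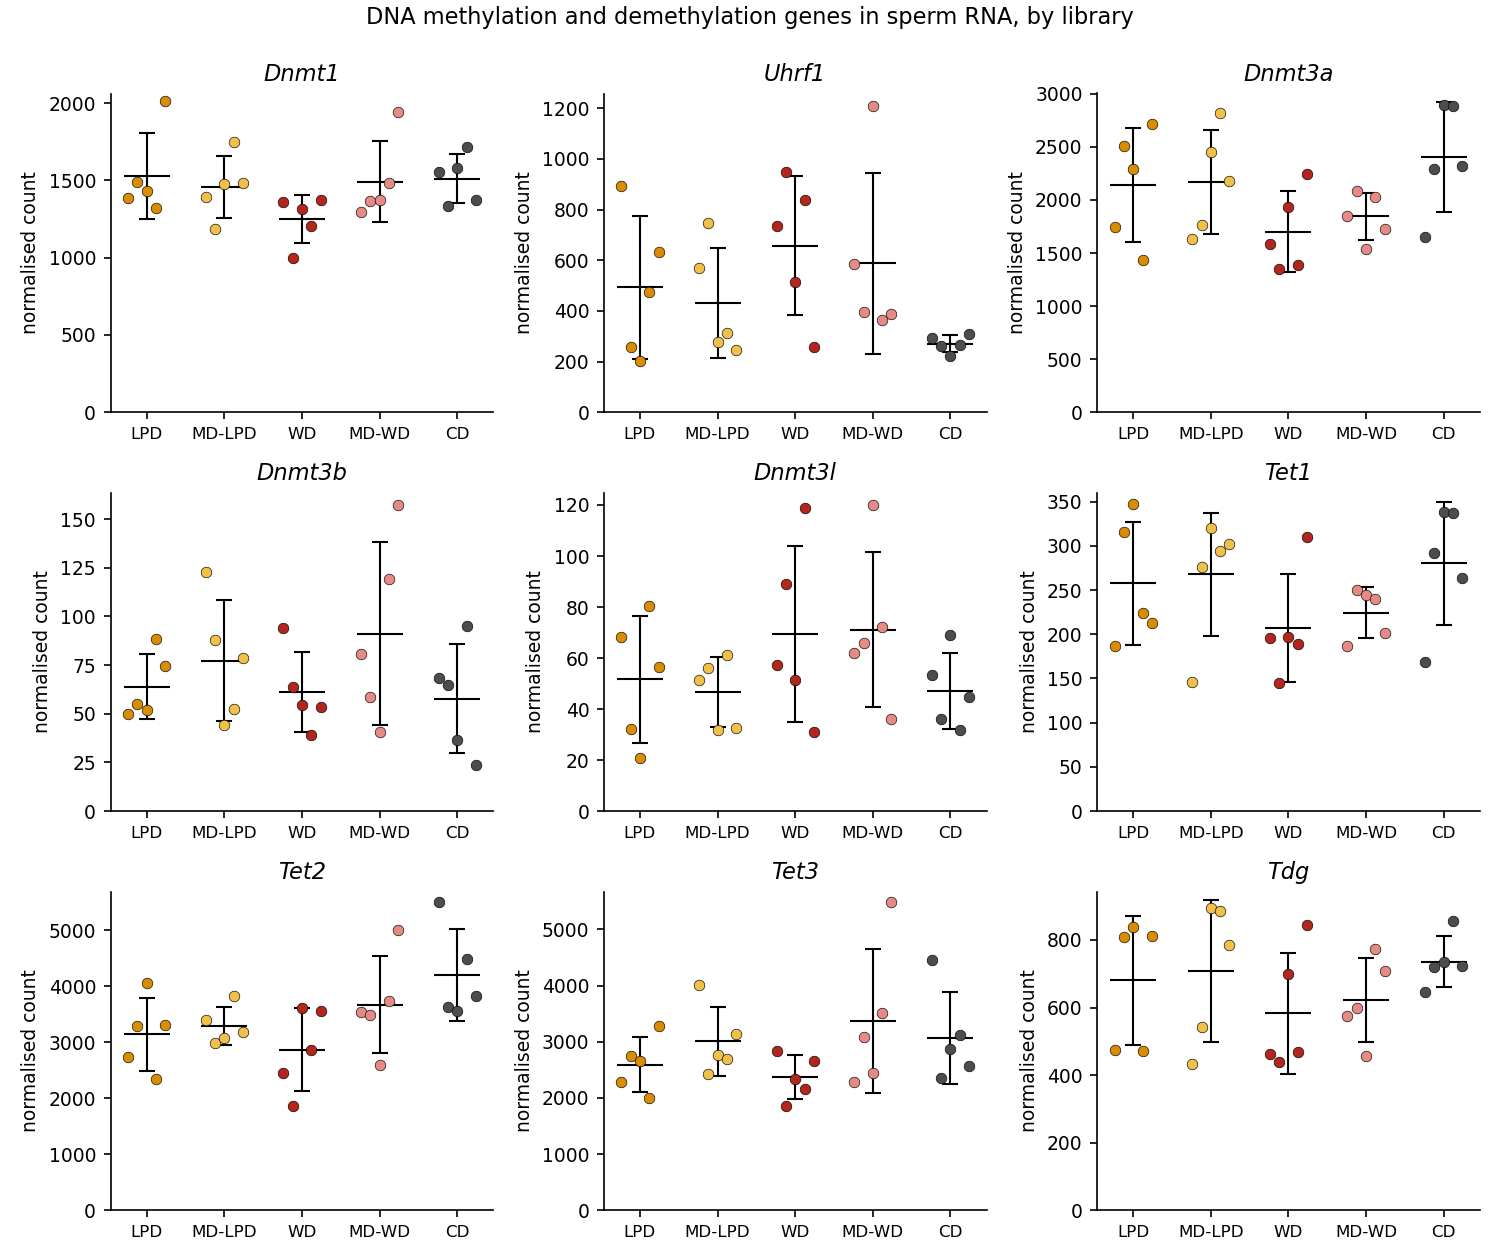
Normalised counts of the 9 genes (vertical axes from 0), 1 point for each library, with the mean and SD of each diet group (n = 5). In the Uhrf1 panel all 5 MD-WD libraries (364 to 1208) and 4 of 5 WD libraries lie above all CD libraries (222 to 310), and in the Tet2 panel 4 of 5 LPD, MD-LPD and WD libraries lie below all CD libraries.

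Uhrf1, the reader of hemimethylated CpG, had higher means in all 4 other diets than in CD. Its normalised counts were 893, 259, 203, 473 and 634 in LPD, 570, 745, 278, 313 and 244 in MD-LPD, 735, 948, 514, 836 and 256 in WD, 587, 395, 1208, 364 and 386 in MD-WD, and 293, 259, 222, 266 and 310 in CD libraries. The CD libraries lay close together, every MD-WD library was above the highest of them, and so were 4 of 5 WD, 3 of 5 LPD and 3 of 5 MD-LPD libraries. Means were 492 ± 283 in LPD, 430 ± 218 in MD-LPD, 658 ± 276 in WD, 588 ± 358 in MD-WD and 270 ± 33.7 in CD (SD, n = 5 each). On the scale of log2(normalised count + 1), the difference from CD was 1.15 (SE 0.42) in WD, with an unadjusted p of 0.011 and an adjusted p of 0.232 in limma, and 0.96 (SE 0.42) in MD-WD, with 0.0307 and 0.481. In LPD and MD-LPD it was 0.66 and 0.54 (SE 0.42 each), with unadjusted p of 0.125 and 0.211, and 0.40 without LPD male 10 and 0.30 without MD-LPD male 10. None of these passed an adjusted p of 0.05. The exact permutation test, two-sided over all arrangements of 5 against 5 libraries, gave MD-WD the smallest p it allows, 0.00794, with 0.208 after adjustment over all genes tested. Of the 9 members 1 lay wholly above CD in MD-WD, as did 1.93% of all genes tested. In WD the exact p was 0.0397, with 0.260 after adjustment, and 17.8% of all genes tested had an exact p under 0.05 there. The MD-WD value leaned on male 12, without which it was 0.66 (unadjusted p 0.122).

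Tet2 had lower means in all 4 other diets than in CD, and so did Tet1, while the mean of Tet3 was lower in 3 of them and higher in MD-WD. Tet2, an oxidase of methylcytosine that lacks the CpG-binding domain of its relatives, had 2735, 3290, 4051, 2337 and 3304 normalised counts in LPD, 3393, 2979, 3085, 3834 and 3186 in MD-LPD, 2447, 1862, 3606, 2856 and 3556 in WD, 3540, 3494, 2587, 3737 and 5006 in MD-WD, and 5513, 3630, 3568, 4484 and 3830 in CD libraries. In each of LPD, MD-LPD and WD 4 of 5 libraries were below the lowest CD library, and in MD-WD 3 of 5 were. At equal totals these counts were 3 of the LPD, 2 of the MD-LPD, 4 of the WD and 2 of the MD-WD libraries. The log2 difference from CD was −0.58 (SE 0.20) in WD, with an unadjusted p of 0.00761 and an adjusted p of 0.230 in limma, and −0.42 in LPD, with 0.0417 and 0.561. In MD-LPD it was −0.34 and in MD-WD −0.21 (SE 0.20 each), with unadjusted p of 0.100 and 0.305. Without 5 libraries picked by eye as standing apart in earlier work on these data (LPD male 15, MD-LPD males 9 and 11, WD male 11 and CD male 10), an omission chosen after seeing the data, the WD value was −0.33 (unadjusted p 0.127). Tet3, which oxidises the paternal genome of the mouse zygote, averaged 2589 ± 487 in LPD libraries, 3006 ± 619 in MD-LPD, 2369 ± 389 in WD, 3365 ± 1287 in MD-WD and 3068 ± 825 in CD, and 3 of 5 WD libraries were below all CD libraries. Tet1, the TET gene of lowest level per kb, averaged 257 ± 70.1 in LPD libraries, 268 ± 69.6 in MD-LPD, 207 ± 61.4 in WD, 224 ± 28.7 in MD-WD and 280 ± 69.9 in CD. The WD differences from CD were −0.35 (SE 0.22) for Tet3 and −0.44 (SE 0.25) for Tet1, with unadjusted p of 0.122 and 0.0935, and that of Tet3 was −0.21 without CD male 10.

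The methyltransferases of highest level, Dnmt3a and Dnmt1, had lower means in WD than in CD. Dnmt3a, which sets methylation patterns in the male germ line, had 1749, 2512, 2287, 1435 and 2715 normalised counts in LPD, 1634, 1761, 2447, 2817 and 2179 in MD-LPD, 1581, 1350, 1932, 1391 and 2245 in WD, 1844, 2086, 1542, 2030 and 1722 in MD-WD, and 1647, 2290, 2897, 2883 and 2318 in CD libraries. In WD 3 of 5 libraries were below the lowest CD library, itself well under the other 4. The log2 difference from CD was −0.50 (SE 0.20) in WD, with an unadjusted p of 0.0212 and an adjusted p of 0.253 in limma, and −0.36 (SE 0.20) in MD-WD, with 0.0860 and 0.497. Dnmt1 averaged 1250 ± 157 in WD and 1511 ± 156 in CD (SD, n = 5 each), a difference of −0.28 (SE 0.15) with an unadjusted p of 0.0726, and 3 of 5 WD libraries were below all CD libraries. In the other diets Dnmt1 averaged 1528 ± 277 (LPD), 1456 ± 202 (MD-LPD) and 1491 ± 260 (MD-WD).

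Dnmt3b and Dnmt3l had few reads and their groups overlapped. Dnmt3b, the de novo enzyme of the embryo, lay between 23.7 and 157 normalised counts, with its highest mean in MD-WD, 91.2 ± 47.1, against 57.7 ± 28.0 in CD, a difference of 0.65 (SE 0.39, unadjusted p 0.112) that was 0.37 without CD male 15 and 0.41 without MD-WD male 16. Dnmt3l, which has no enzymatic activity of its own, lay between 20.7 and 120 and averaged 69.5 ± 34.6 in WD, 71.2 ± 30.5 in MD-WD and 47.0 ± 14.8 in CD, differences of 0.46 (SE 0.40) and 0.54 (SE 0.40) with unadjusted p of 0.261 and 0.191. The first of these was −0.07 when libraries were scaled to equal totals and 0.23 without WD male 13, and the other was 0.33 without MD-WD male 12. Tdg averaged 583 ± 180 in WD and 736 ± 75.6 in CD, a difference of −0.38 (SE 0.24, unadjusted p 0.119), and in WD 3 of its libraries lay between 440 and 468 and the other two at 700 and 843.

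No member passed an adjusted p of 0.05 in any of the 4 comparisons with CD, by limma, edgeR or DESeq2, and 0% of all 28311 genes tested did in limma and edgeR. DESeq2 called 42 genes of any kind in LPD libraries (0.14%), 18 in MD-LPD (0.0379%), 123 in WD (0.522%), and also 56 in MD-WD (0.181%), none of them a member. With a weight for each library, limma passed 6 of 9 members in WD and 1 of 9 in MD-WD, as it did 43.1% and 11.2% of all genes. At an unadjusted limma p under 0.05, LPD had 1 of 9 members (8.56% of all genes), MD-LPD had 0 of 9 (3.22%), WD had 3 of 9 (16.3%) and MD-WD had 1 of 9 (10.4%). In WD 6 of 9 members were lower than in CD, where 48.4% of all genes were, with a median log2 difference of −0.35 against 0.03 over all genes. These 4 comparisons share the CD libraries, so they are not independent of each other.

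Methyl donors on the Western diet were set against that diet alone. In MD-WD 8 of 9 members had a higher mean log2 count than in WD, against 47.2% of all genes, Uhrf1 being the exception. At equal totals 9 of 9 were higher, as were 71.4% of all genes. Tet3 had the lowest p, with a difference of 0.45 (SE 0.22), with an unadjusted p of 0.0522 and an adjusted p of 0.900 in limma, and was 0.25 (unadjusted p 0.223) without MD-WD male 16. Its counts were 2288, 3087, 2446, 3512 and 5492 in MD-WD against 2830, 1853, 2344, 2164 and 2656 in WD, with 3 MD-WD libraries above all WD libraries. Tet2 differed by 0.37 (SE 0.20), with 0.0740 and 0.910, and by 0.22 without WD male 11. At an unadjusted p under 0.05 there were 0 of 9 members in this comparison (5.55% of all genes) and 0 of 9 in MD-LPD against LPD (1.59%), and 0 genes of any kind passed an adjusted p of 0.05 in limma or edgeR, while DESeq2 called 12 (0.0356%) and 16 (0.0503%). In MD-LPD against LPD 6 of 9 members had a higher mean, against 51.9% of all genes, with a median log2 difference of 0.05. The test of whether the supplement effect differed between the 2 base diets gave 0 of 9 members at an unadjusted p under 0.05 (1.07% of all genes, with 0.0168% past an adjusted p in DESeq2), the lowest being 0.147 for Dnmt1.

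How the libraries were brought to a common scale mattered for these values. The summed normalised count was on average 45437497 in LPD, 43837871 in MD-LPD, 52909117 in WD, 45169043 in MD-WD and 34955628 in CD, and scaling to equal totals moved the median log2 difference of all genes to −0.49 in WD, −0.28 in LPD, −0.21 in MD-LPD and −0.17 in MD-WD. At equal totals Uhrf1 was still higher, by 0.62 in WD and 0.67 in MD-WD, and all 5 MD-WD libraries and 4 of 5 WD libraries lay above all CD libraries. Tet2 and Dnmt3a then differed by −1.11 and −1.03 in WD. Relative to the median of all genes, which by construction shifts with the scaling nearly as each gene does, Uhrf1 stood at 1.13, Tet2 at −0.60 and Dnmt3a at −0.53 in WD by the deposited size factors.

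**Figure D3:**
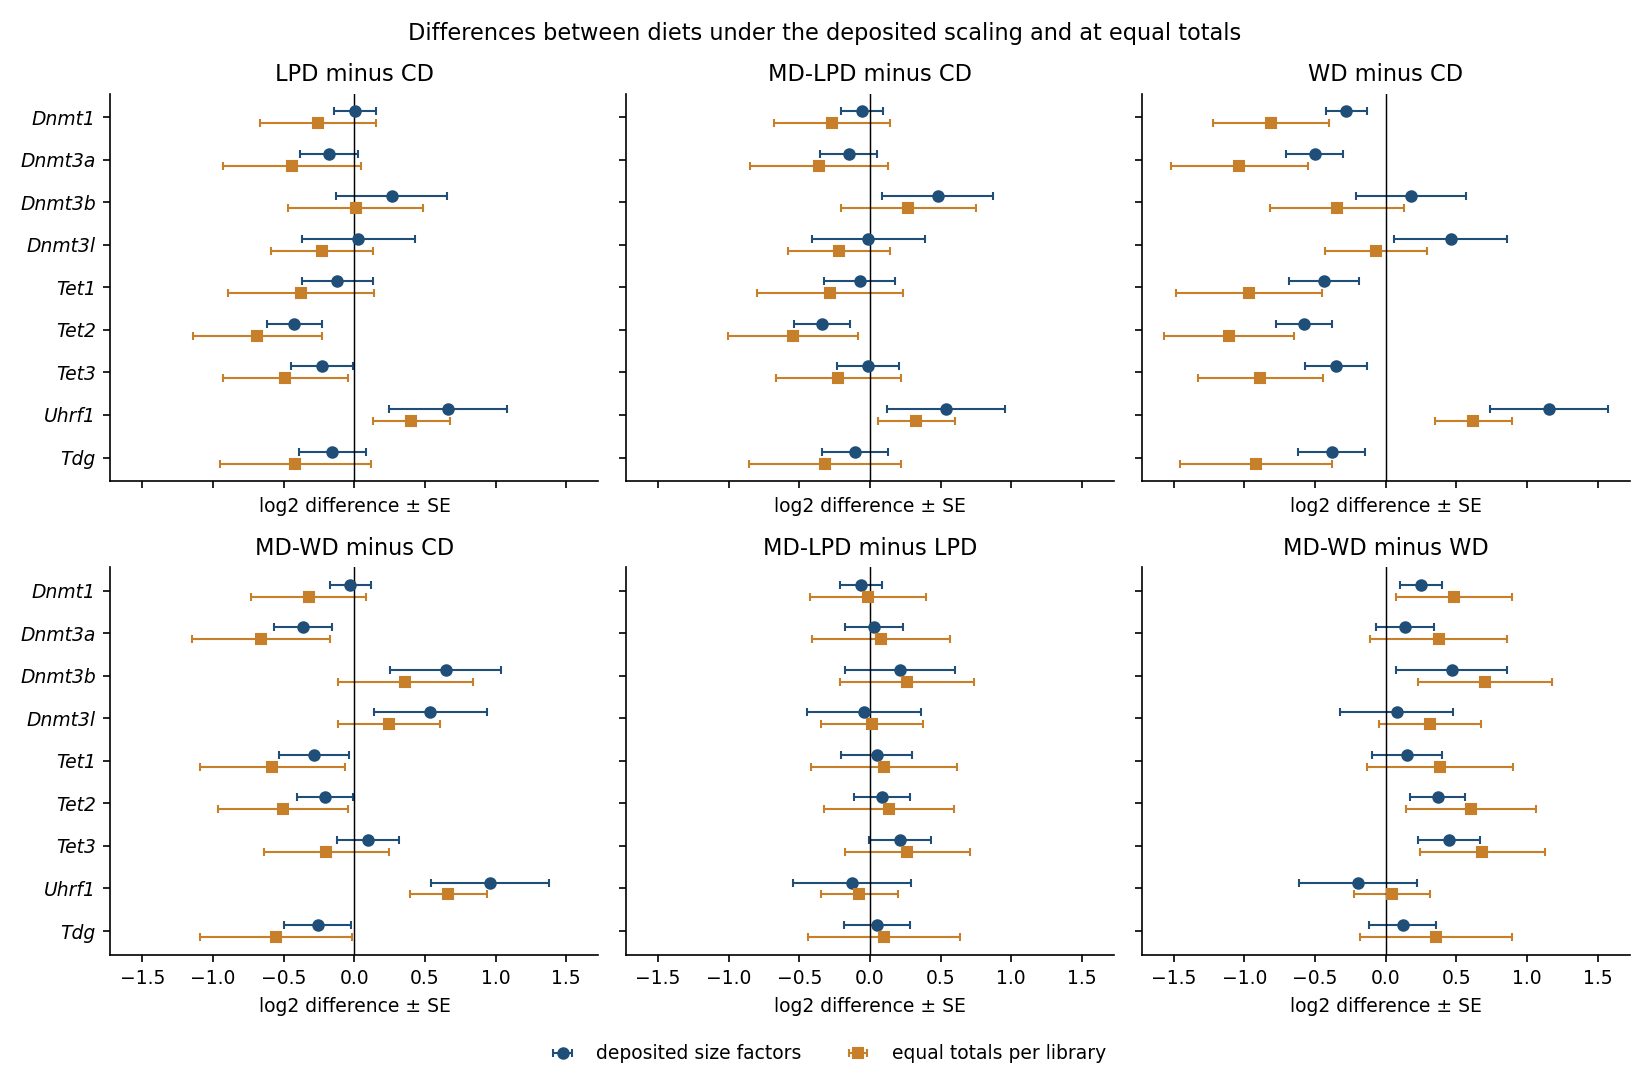
Log2 difference of the mean log2(normalised count + 1) for the 9 genes in 6 comparisons, with the SE from limma, by the deposited size factors (circles) and with libraries scaled to equal totals (squares). Uhrf1 lies right of 0 in all comparisons with CD under both scalings, and in WD the values of Tet2 and Dnmt3a lie at −0.58 and −0.50 by size factors and at −1.11 and −1.03 at equal totals.

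The members were also set against sperm transcripts from library to library. Uhrf1 followed the sum of the sperm and late spermatid markers over the 25 libraries, with Pearson's r 0.87 and Spearman's rho 0.85 on the log2 scale (permutation p 1e-05 for each, the smallest that 100000 permutations can give, and 0.00024 adjusted over 72 relations of 9 genes with 8 marker lists). Without the 2 libraries farthest from the median of the sum r was 0.83, within diet groups 0.91 and at equal totals 0.54. Uhrf1 also followed the sum of spermatocyte and spermatogonia markers (r 0.86, rho 0.80, permutation p 1e-05 each, adjusted 0.00024, within groups 0.89, at equal totals 0.47) and the summed normalised count of all genes (r 0.87), with which Tdg had r −0.91. Dnmt3l had r 0.77 and rho 0.70 (permutation p 2e-05 and 0.00021, adjusted 0.000288 and 0.00189), 0.66 without those libraries and 0.73 within groups, but 0.23 at equal totals (permutation p 0.267). Tdg ran opposite, with r −0.85 and rho −0.87 (permutation p 1e-05 each, adjusted 0.00024), −0.84 without those libraries, −0.85 within groups and −0.65 at equal totals. Dnmt3a had r −0.74 and rho −0.76 (permutation p 3e-05 and 4e-05, adjusted 0.00036 and 0.00048), −0.75 without those libraries, −0.70 within groups and −0.65 at equal totals. Tet1 had r −0.67 and rho −0.73 (adjusted permutation p 0.00198 and 0.00048), Dnmt1 −0.55 and −0.67 (0.0132 and 0.00282), Tet2 −0.51 and −0.48 (0.0241 and 0.0386) and Tet3 −0.38 and −0.53 (0.133 and 0.0182), with r between −0.69 and −0.43 without those libraries, between −0.62 and −0.41 within groups and between −0.68 and −0.58 at equal totals. Dnmt3b had r 0.00126 and rho 0.0331 (adjusted permutation p 0.995 and 0.888), but r −0.57 at equal totals. It followed other lists, with r 0.61 for leukocyte and 0.60 for endothelial markers (adjusted permutation p 0.00609 and 0.00643, r 0.68 and 0.70 at equal totals). This was not particular to Dnmt3b. Tet3 had r 0.56 and 0.47 with these lists (adjusted permutation p 0.0132 and 0.0408, r 0.69 and 0.74 at equal totals). Its rho was 0.32 and 0.28 (adjusted permutation p 0.188 and 0.245). Tdg had r 0.59 with smooth muscle markers (0.0094, r 0.87 at equal totals). Dnmt3a had r 0.54 (0.0174, r 0.86 at equal totals) and Tet1 0.50 (0.0305, r 0.85) with the same list. Uhrf1 ran the other way, with r −0.55 (0.0149, r −0.24 at equal totals). Tet1 had r −0.57 with leukocyte markers (0.0117), but 0.25 at equal totals, and −0.64 with endothelial markers (0.00403), but 0.34 at equal totals. The rest of the 72 relations are not reported here. The 3 libraries with the highest sperm sums, MD-WD male 12, WD male 11 and LPD male 10, were also the 3 highest for Uhrf1, at 1208, 948 and 893, and LPD male 12, with the lowest sum, was the lowest for Uhrf1 and for Dnmt3l, at 203 and 20.7.

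**Figure D4:**
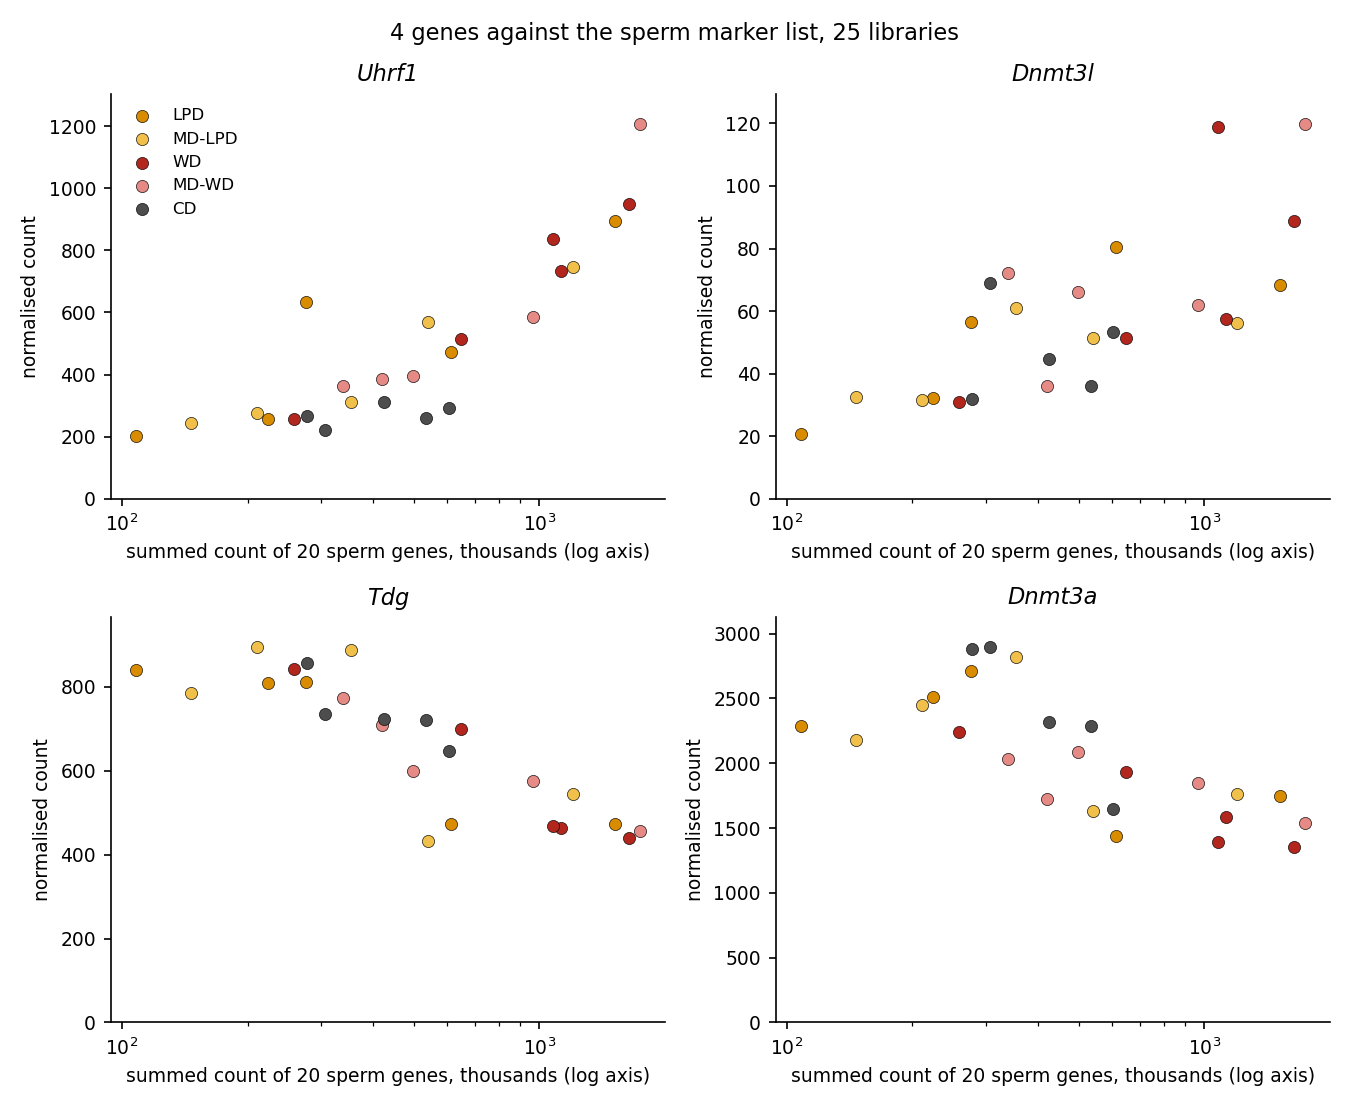
Normalised counts of Uhrf1, Dnmt3l, Tdg and Dnmt3a (vertical axes from 0) against the summed normalised count of 20 sperm and late spermatid genes (log axis), 1 point for each of 25 libraries, coloured by diet. By the deposited size factors, Uhrf1 and Dnmt3l are higher and Tdg and Dnmt3a lower where the sum is larger, with Pearson's r of 0.87, 0.77, −0.85 and −0.74 on the log2 scale. At equal totals, not drawn, the r of Dnmt3l was 0.23.

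The same markers were higher in WD and MD-WD, where 20 of 20 had a mean log2 count above that of CD in each, against 51.6% and 57.4% of all genes, though none passed an adjusted p of 0.05 in limma. Of the other lists, spermatocyte and spermatogonia markers were higher than in CD in 15 of 17 tested genes in WD and 13 in MD-WD, leukocyte markers in 12 and 18 of 18, epididymal epithelium in 14 and 8 of 18, fibroblast matrix in 9 and 7 of 10 and endothelium in 7 and 7 of 8. Smooth muscle markers were higher in only 3 of 8 in WD and 5 in MD-WD, and proliferation markers in 5 and 8 of 13. The leukocyte sum averaged 32744 ± 9645 in WD, 54205 ± 23924 in MD-WD and 37004 ± 26268 in CD, and the epididymal epithelium sum 324301 ± 76814 in WD, 186652 ± 62789 in MD-WD and 326007 ± 116788 in CD (SD, n = 5 each). The leukocyte mean of CD rested on male 10, at 83466, the other CD libraries lying between 20993 and 29372. The part of these shifts in the Uhrf1 difference was not tested, but 2 values chosen after seeing the data stand beside it. With the summed normalised count as a covariate, the Uhrf1 difference from CD was 0.56 in WD and 0.63 in MD-WD (unadjusted p 0.0204 and 0.00745, adjusted p 0.530 and 0.350 in limma). Among the other diets 5 libraries, 3 of MD-WD and 2 of MD-LPD, had a sperm marker sum inside the range of the CD libraries (278189 to 605583). All 5 had more Uhrf1, 313 to 570, than any CD library, 222 to 310, by the deposited size factors, and 3 of 5 did at equal totals. For the 3 MD-WD libraries this was fixed beforehand, as every MD-WD library lay above all CD libraries under both scalings. The other 2, MD-LPD males 14 and 9, were at 313 and 570, and male 9 was among the libraries picked by eye as standing apart. These values therefore cannot show what part the sperm markers have in the Uhrf1 difference.

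Over these libraries Uhrf1 ran opposite to Tdg (Pearson's r −0.82), Dnmt3a (−0.71), Tet1 (−0.69) and Tet2 (−0.64) by the deposited size factors. Its r with Dnmt1, the enzyme that acts with UHRF1 at the replication fork, was nearer 0 than these at that scaling. So was its r with Tet3 (−0.34) and with Dnmt3b (0.08). With Dnmt3l, Uhrf1 had r 0.75, and 0.33 at equal totals. At equal totals Dnmt1 was not set apart, with r −0.33 beside −0.34 for Tdg, −0.35 for Dnmt3a, −0.38 for Tet1 and −0.41 for Tet2. For Uhrf1 and Dnmt1 Pearson's r was −0.42 and Spearman's rho −0.51 (permutation p 0.0351 and 0.0107, adjusted over 36 pairs of members 0.0602 and 0.0203), with r −0.64 without the 2 libraries farthest from the median of Dnmt1, −0.34 within diet groups and −0.33 at equal totals. The reads of Uhrf1 per read of Dnmt1 averaged 0.327 ± 0.1998 in LPD libraries, 0.314 ± 0.203 in MD-LPD, 0.553 ± 0.291 in WD, 0.413 ± 0.278 in MD-WD and 0.181 ± 0.0336 in CD (SD, n = 5 each), a ratio that no scaling changes. It lay between 0.187 and 0.952 in WD, between 0.199 and 0.881 in MD-WD and between 0.141 and 0.226 in CD, so the groups overlapped.

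Among 18158 named genes with a mean of at least 50, those whose log2 counts were most like each member over the 25 libraries were found by Pearson's r. For Uhrf1 these were the pseudogenes Gm7736 (r = 0.96) and Gm7740 (0.96) with Rab11fip5 (0.96), and for Dnmt3l they were Ccdc183 (0.93), Ace3 (0.92) and Fer1l5 (0.92). Dnmt1 was most like Macroh2a1 (0.91), which encodes a histone variant, Mcm3 (0.88), a subunit of the replicative helicase, and Fkbp15 (0.84). Dnmt3a was most like Mbd1 (0.94), a reader of methylated CpG, and nearly as much like Mafg (0.94) and D5Ertd579e (0.93). Tet2 was most like Tnrc6a (0.97), Bclaf1 (0.95) and Ogt (0.95), the last encoding the O-GlcNAc transferase that binds TET proteins. Tet3 was most like Csk (0.94), Tet1 like Fndc10 (0.90), Tdg like Zfp740 (0.95) and Dnmt3b, at a lower r, like Tvp23a (0.76). The libraries share a scaling and differ in their sum of sperm markers, and the part of either in these r values was not tested.

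Genes that work with the enzymes were taken from 5 further lists, and none of their tested genes passed an adjusted p of 0.05 in limma, edgeR or DESeq2 in the comparisons with CD or between supplemented and plain diets. Beside the counts that follow, 51.6% of all genes were higher in WD and 57.4% in MD-WD than in CD by the deposited size factors. At equal totals these shares were 28.7% and 39.8%. Of 9 genes listed as readers of methylated CpG, 4 had a higher and 5 a lower mean in WD than in CD (1 and 8 at equal totals). An unadjusted limma p under 0.05 was reached by 5, of which 2 were higher and 3 lower, and by 16.3% of all genes. Uhrf2, a relative of Uhrf1, was at 3091 ± 1208 in WD and 4881 ± 1243 in CD (−0.70, SE 0.31, unadjusted p 0.0308, adjusted p 0.275 in limma), opposite in sign to Uhrf1. Mbd3, a subunit of the NuRD complex, had the lowest p in WD, at 2481 ± 801 against 1464 ± 90.5 in CD (0.70, SE 0.27, unadjusted p 0.0159).

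Of 14 tested genes among 16 listed partners of the methyltransferases, 8 were higher and 6 lower in WD than in CD (4 and 10 at equal totals). Nsd1, which writes the histone mark that guides DNMT3A to intergenic DNA, had a count of 9150 ± 1208 in WD and 12322 ± 786 in CD (−0.44, SE 0.14, unadjusted p 0.00503, adjusted p 0.226 in limma). Ehmt2, a histone H3 lysine methyltransferase, stood at 9435 ± 3450 in WD and 5361 ± 377 in CD (0.74, SE 0.29, unadjusted p 0.0182). Cdca7, the partner of the chromatin remodeller HELLS, was at 44.3 ± 25.96 in MD-WD, 7.34 ± 7.43 in WD and 18.3 ± 5.39 in CD, and the MD-WD minus WD difference of 3.08 (SE 0.69) had an unadjusted p of 0.000166 and an adjusted p of 0.896.

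Of 7 genes that bind TET enzymes or make and clear their substrates and inhibitors, 5 were lower in WD than in CD and 6 in MD-WD than in CD (all 7 in both at equal totals). Ogt averaged 4707 ± 1549 in WD and 8923 ± 1500 in CD (−0.97, SE 0.27, unadjusted p 0.00161, adjusted p 0.220 in limma), in the same direction as Tet2. Idh1, an isocitrate dehydrogenase that makes the 2-oxoglutarate TET enzymes consume, averaged 597 ± 77.1 in MD-WD and 886 ± 116 in CD (−0.57, SE 0.21, unadjusted p 0.0111, adjusted p 0.481).

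Of 14 base excision repair genes, which act after Tdg, 5 were higher and 9 lower in WD than in CD (0 and 14 at equal totals). None reached an unadjusted limma p under 0.05 there, where 16.3% of all genes did. Lig3, the ligase that seals the repaired strand, had the highest count of the list, at 3666 ± 1162 in WD and 2648 ± 158 in CD (0.40, SE 0.27, unadjusted p 0.156). Neil1, a glycosylase for oxidised bases, averaged 615 ± 486 in MD-WD and 204 ± 47.6 in WD (1.30, SE 0.49, unadjusted p 0.0149, adjusted p 0.896 in limma).

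Of 23 genes of one-carbon metabolism, 15 were lower in WD and 15 in MD-WD than in CD (18 and 17 at equal totals), with median log2 differences of −0.27 and −0.31 against 0.03 and 0.11 over all genes. Mat2a, which makes S-adenosylmethionine, averaged 3231 ± 1190 in WD and 4919 ± 1165 in CD (−0.64, SE 0.29, unadjusted p 0.0380, adjusted p 0.289 in limma). Cbs, which takes homocysteine out of the methionine cycle, had the highest count of the list, at 7644 ± 4178 in WD, 6502 ± 2676 in MD-WD and 10663 ± 4056 in CD (unadjusted p 0.274 and 0.152).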

How the data were processed

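The authors used Trim Galore 0.6.7 (quality 20) for trimming, HISAT2 2.2.1 for alignment against GRCm39 and StringTie 2.2.1 for counting, and deposited gene counts divided by DESeq2 size factors, a normalised signal with no further transformation. The DESeq2 version and the strand setting are not given in the sources used here. Every deposited value was a whole number of reads divided by its library's factor within a tolerance of 0.01 (100% of values), so reads were recovered for the count tests. The factor of MD-WD male 16 was exactly 1, so its deposited values were whole reads. Why is not given in the sources used here. Summed over all genes, the recovered reads came to 32455480 to 54108158 per library (median 38676778). Symbols came from GENCODE vM39 for 47034 of 47575 gene IDs.

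Genes with a mean normalised count of at least 5 (28311) were fitted as log2(normalised count + 1) in limma 3.58.1 (R 4.3.3, trend and robust empirical Bayes), with 5 groups in 1 model, 6 comparisons and 1 interaction, and Benjamini-Hochberg adjustment over all genes. Fold changes of low genes are understated on this scale. Exact permutation tests used every arrangement of 5 against 5 libraries, and correlations used 100000 permutations (two-sided). Other steps ran in Python 3.11.15 with scipy 1.17.1, pandas 2.3.3, numpy 2.4.6 and, for figures, matplotlib 3.10.9. The limma script was tested on simulated data.

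Alternatives were edgeR 4.0.16, DESeq2 1.42.0, TMM scaling, equal totals, pseudocounts of 0.5 and 5, other filters, library weights, non-robust moderation, 2-group fits, a block for the male number, other handling of the conflicting labels and leaving out each library. A covariate for the summed normalised count and the omission of 5 libraries were added after seeing the data. The members and lists were chosen with earlier results of these data known. All 9 members are named. From each other list, genes past an adjusted p of 0.05 were to be named, or else the 3 of highest mean and the gene of lowest p in each comparison, of which the text gives a part, some items not being reported here. Promoter sequences were read from GRCm39. Spermatocyte and spermatogonial markers summed to 3171 to 12147, smooth muscle markers to 1402 to 7821 and endothelial markers to 1714 to 6014 per library.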

Additional observations from a re-analysis of the deposited data

Results flagged for a closer look

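By the deposited size factors, 1 library lay apart from the other 4 in 4 of the 45 sets of 5 libraries (9 genes in 5 diets). The rule was a gap over the range above Dixon's 95% critical value of 0.71. Chance alone sets apart about 1 such set in 20. Dnmt1 was at 2011 normalised counts in LPD male 15, where the other LPD libraries lay between 1321 and 1490, and at 1941 in MD-WD male 16, where the others lay between 1297 and 1480. Tet1 was at 146 in MD-LPD male 9, below the others at 276 to 320. Uhrf1 was at 1208 in MD-WD male 12, above the others at 364 to 587, and that library also had the highest sum of sperm markers, 1737712. LPD male 15 is 1 of the 3 libraries whose treatment field names another diet. The rule was not applied at equal totals. There Dnmt1 was at 2006 in LPD male 15, below 2224 and 2428 in LPD males 11 and 12. In MD-WD male 16 Dnmt1 was then at 2204, beside 1984 in MD-WD male 14. Tet1 was then at 85.8 in MD-LPD male 9, beside 189 in MD-LPD male 10.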

How the results depend on the processing

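Of 54 member differences, 25 changed sign under some alternative and 19 did so on leaving out single libraries, but of the 19 of at least 0.3 in size 1 did, Dnmt3l in WD against CD, which was −0.0651 at equal totals, where its r with the sperm markers was 0.23 (adjusted p 0.337) and that of Dnmt3b −0.57, against 0.00126 by the deposited size factors. No member passed an adjusted p of 0.05 except with library weights, where 6 passed in WD and 1 in MD-WD against CD: in WD Uhrf1 was 1.46 (adjusted p 0.00149 in limma), Tet2 −0.49, Dnmt3a −0.77, Dnmt1 −0.31, Tet1 −0.69 and Tdg −0.55, and in MD-WD Dnmt3a was −0.43 (adjusted p 0.0377). Genes of any kind past the threshold were 0 in limma and, with weights, 1768 in LPD, 2 in MD-LPD, 12200 in WD, then 3170 in MD-WD against CD and 37 in MD-LPD against LPD. DESeq2 gave 42, 18, 123 and 56 in LPD, MD-LPD, WD and MD-WD against CD, 16 in MD-LPD against LPD, 12 in MD-WD against WD and 8 for the interaction. Without a filter 1 gene passed in MD-WD against CD and 1 in MD-WD against WD, and with only the 2 groups compared 1 passed in MD-WD against CD and 1 in MD-LPD against LPD. Leaving out single libraries gave 0 to 1 genes in LPD, MD-LPD and WD against CD (1 without CD male 12) and for the interaction (1 without MD-LPD male 9 or WD male 10). The causes were not tested. Uhrf1 lay between 0.99 and 1.46 in WD on leaving out single libraries, between 0.66 and 1.09 in MD-WD, between 0.40 and 0.93 in LPD and between 0.30 and 0.71 in MD-LPD, Tet2 between −0.67 and −0.43 in WD, and Dnmt3a between −0.63 and −0.42 in WD.

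Male numbers recur between groups without a stated pairing, and same-numbered libraries did not deviate together (r −0.42 to 0.57, median 0.03, 33 pairs). With a replicate block, Uhrf1 was 1.09 in WD (adjusted p 0.499 in limma) and 0.99 in MD-WD (0.771), Tet2 −0.53 and Dnmt3a −0.38 in WD, and no member passed. With groups by the treatment field Uhrf1 was 0.99 in WD, and without the 3 conflicting libraries 1.21. Dnmt3b and Dnmt3l, at 27 to 157 and 31 to 94 reads, are limited by depth.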
